A study of Mus musculus with 3 samples.

Results

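The genes described here are forkhead transcription factors of freshly sorted adult mouse lung endothelial cells (ECs). They were taken by symbol from the deposited table, and they are *Foxf1*, *Foxf2*, *Foxc1*, *Foxc2*, *Foxo1*, *Foxo3*, *Foxo4*, *Foxp1*, *Foxp2* and *Foxp4*, that is 10 of its 24346 genes. The samples were 3 libraries of 1 group, called S38, S44 and S52 as in the labels, from lungs of wild-type male C57BL/6J mice aged 6 to 8 weeks that had been injected with an antibody to VE-cadherin. Tissue was digested with enzymes and CD31+ CD45- Podoplanin- cells were sorted by flow cytometry. No source used here says whether a library came from 1 animal or from pooled animals. With no second condition there was no contrast to test, and the values below describe levels and their spread between libraries, which may be technical.

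Forkhead factors bind DNA through a shared winged-helix domain and are grouped into subfamilies by sequence. *Foxf1* is transcribed in the mesoderm-derived cells of the lung under hedgehog signalling, and its loss in humans underlies alveolar capillary dysplasia. FoxO factors are held in the cytoplasm after phosphorylation by Akt downstream of insulin, IGF and Tie2 receptors, and in quiescent cells they enter the nucleus and switch on cell cycle inhibitors and metabolic genes. FoxC factors act in arterial and lymphatic vessel development, and FoxP factors are repressors that work with corepressor complexes.

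The labelled cell type was checked against its defining markers. All 10 endothelial markers reached a mean of 10 FPKM, with list medians of 482 (S38), 501 (S44) and 451 FPKM (S52). Their sums were 6094 (S38), 6735 (S44) and 5952 FPKM (S52). FPKM counts fragments relative to gene length and to library size. S52 stood apart from the other libraries in the platelet markers and in most alveolar and airway epithelial markers, though not in the markers of every other cell type. The 5 platelet markers summed to 1709 (S38), 1357 (S44) and 40.2 FPKM (S52), and the 14 alveolar and airway epithelial markers to 6929, 5863 and 1434 FPKM. Of these 14 markers, 12 were lowest in S52 and 1, *Ager*, was highest there. The epithelial sum was thus above the endothelial sum in S38. Most of that epithelial sum was *Sftpc* at 3333 FPKM and *Scgb1a1* at 2669 FPKM. The epithelial markers *Cdh1* and *Nkx2-1* were at 7.48 and 1.75 FPKM in S38. The sums compare the listed markers only, not the shares of epithelial and endothelial RNA. The epithelial genes *Sftpc* and *Scgb1a1* had means of 2284 and 1753 FPKM. Both were above the highest endothelial marker, *Cldn5*, with a mean of 1416 FPKM. Depth was estimated from the steps between low values at 38000000, 38800000 and 33900000 fragments. Values in threes below are in the order S38, S44 and S52.

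The forkhead genes spanned more than 3 orders of magnitude, with *Foxf1* far above the others. A mean of 1 FPKM was reached by 7 of the 10, against 48.3% of all genes in the table, and a mean of 10 FPKM by 4 of them (*Foxf1*, *Foxp1*, *Foxo4* and *Foxo1*), against 25.7% of all genes. The order of the means was *Foxf1*, *Foxp1*, *Foxo4*, *Foxo1*, *Foxo3*, *Foxf2*, *Foxp4*, *Foxc1*, *Foxc2* and *Foxp2*. Of the 9 pairs of neighbours in this order, 4 had ranges that did not overlap between genes: *Foxf1* over *Foxp1*, *Foxp1* over *Foxo4*, *Foxo1* over *Foxo3* and *Foxo3* over *Foxf2*. The ranges of the other 5 pairs overlapped, although *Foxp4* exceeded *Foxc1* in each library, by 1.29-fold, 1.40-fold and 4.58-fold. A two-sided exact paired permutation test over 3 libraries cannot go below p = 0.25, which these 4 pairs and *Foxp4* over *Foxc1* reached (adjusted p = 0.45 over the 9 pairs). The pairs were ordered by the means of the same libraries, so the test cannot support the order. The share of pairs without overlap among neighbouring genes of the whole table was not computed.

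**Figure D1:**
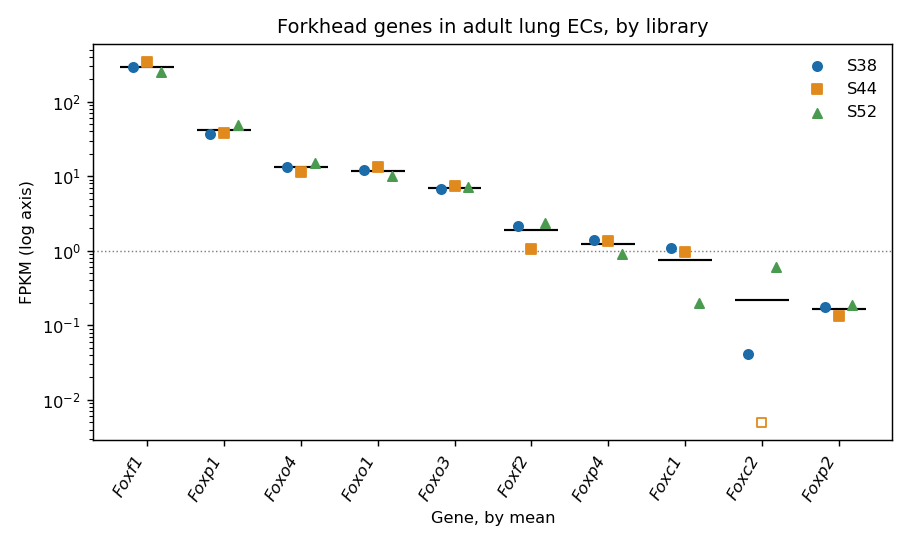
FPKM of the 10 forkhead genes (log axis) in the libraries S38, S44 and S52, ordered by mean. Points are libraries, horizontal bars are means of 3 libraries, the dotted line is 1 FPKM, and the hollow square is *Foxc2* in S44, listed at 0 and drawn at the foot of the axis. *Foxf1* lies at 254 to 341 FPKM, above every value of the other genes.

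*Foxf1* (ENSMUSG00000042812.5) occupies chr8:121084386-121088144 in GRCm38 (plus strand), with 2 exons in a transcript of 2415 bp. It was at 295 (S38), 341 (S44) and 254 FPKM (S52). The libraries differed by 1.34-fold at most, and the mean was 297 ± 43.5 FPKM (SD, n = 3), which stands at rank 351 of the 24346 genes. *Foxf1* was close in level to endothelial receptor genes. *Tek*, which encodes the angiopoietin receptor Tie2, was at 333 ± 29.7 FPKM (SD, n = 3), and the range of *Kdr*, the VEGF receptor gene, at 380, 360 and 237 FPKM, overlapped that of *Foxf1*. Of the 10 endothelial markers examined, 7 had a higher mean than *Foxf1* and 3 a lower one. *Erg*, an ETS factor that is a standard nuclear marker of ECs, was lower in each library, at 59.2, 43.1 and 84.8 FPKM. The 7 fibroblast markers were also detected and summed to 98.2, 80.4 and 63.7 FPKM. The part of RNA from fibroblasts or other cells in the *Foxf1* values was not tested.

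*Foxf2*, the closest paralogue of *Foxf1* and a gene known from pericytes and brain vessels, was at 2.18 (S38), 1.07 (S44) and 2.38 FPKM (S52), a mean of 1.88 ± 0.708 FPKM (SD, n = 3). *Foxf1* exceeded it 135-fold, 320-fold and 107-fold in the same order of libraries, and no read-length window of 51 bp was shared between transcripts of these paralogues. At the estimated depths the *Foxf2* values stand for about 182, 91.2 and 179 fragments, and those of *Foxf1* for 25200, 29800 and 19500. *Foxf2* was lowest in S44, as was each of the 8 mural cell markers, which summed to 214, 126 and 202 FPKM. *Pdgfrb*, the receptor that defines pericytes, was at 6.47, 4.80 and 10.1 FPKM. The part of mural RNA in the *Foxf2* values was not tested, and in bulk samples fewer cells of a type and less RNA per cell cannot be told apart.

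*Fendrr*, a long noncoding RNA gene that is read in the opposite direction from the same interval, followed *Foxf1* across libraries. It starts 1276 bp from *Foxf1* on the minus strand, and it was at 132 (S38), 149 (S44) and 114 FPKM (S52). The ratio of *Foxf1* to *Fendrr* was 2.23, 2.30 and 2.24, or 2.26 ± 0.0349 (SD, n = 3), a ratio within each library that no rescaling of the library can change. Such likeness was not particular to this pair, as *Notch1*, at 41.5, 48.4 and 36.2 FPKM, followed *Foxf1* more closely still. No exon of *Fendrr* overlaps one of *Foxf1* in the annotation, so the absence of strand information does not mix their reads there. By contrast, the other forkhead genes of the cluster, *Foxc2* at 31.8 kb from *Foxf1* and *Foxl1* at 11.8 kb from *Foxc2*, were below 1 FPKM in every library, with *Foxl1* at 0.0376, 0.128 and 0.325 FPKM. The paralogous cluster on chromosome 13 holds *Foxq1*, *Foxf2* and *Foxc1*, and *Foxq1* was at 0.189 and 0.0677 FPKM and listed at 0 in S52.

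**Figure D2:**
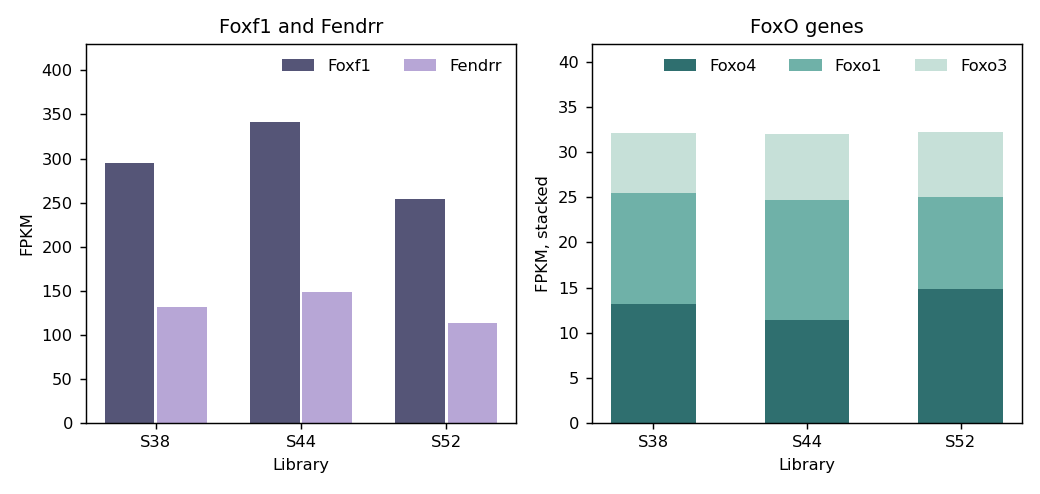
Left, FPKM of *Foxf1* and its divergent neighbour *Fendrr* by library. Right, FPKM of *Foxo4*, *Foxo1* and *Foxo3* stacked by library, with totals of 32.1, 32.0 and 32.2 FPKM for S38, S44 and S52. Bars are single values and both axes start at 0.

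The 250 bases before the *Fendrr* start, which lie between *Fendrr* and *Foxf1*, are shown because they belong to the divergent pair described above. They were copied from the RefSeq promoters of GRCm38.p6 (chr8:121083111-121083360, minus strand), and capitals mark the forkhead core GTAAACA, searched on both strands.
Fendrr: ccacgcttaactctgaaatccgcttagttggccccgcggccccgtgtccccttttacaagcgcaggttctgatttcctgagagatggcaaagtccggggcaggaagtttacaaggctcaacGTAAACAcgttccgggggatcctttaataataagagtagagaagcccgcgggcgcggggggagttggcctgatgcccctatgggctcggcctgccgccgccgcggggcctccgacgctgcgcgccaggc
The window held 1 match, 129 bases before the start. Of all 32851 promoter windows of this length, 3.17% held the core. A match is a description of the letters and says nothing of binding. No window was in the table for *Foxf1*, *Foxc2*, *Foxo4* and *Foxp2*, and none of the 8 windows of the other 6 genes held the core.

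Among the FoxP genes, *Foxp1* was high and the others were near or below 1 FPKM. *Foxp1*, a repressor broadly present in blood vessels and lung epithelium, was at 37.4 (S38), 37.9 (S44) and 48.9 FPKM (S52), a mean of 41.4 ± 6.48 FPKM (SD, n = 3) at rank 2100. *Foxp4*, which acts beside *Foxp1* and *Foxp2* in airway epithelium, was at 1.40, 1.34 and 0.913 FPKM, lowest in S52. *Foxp2* was at 0.174, 0.132 and 0.189 FPKM, and the ratio of *Foxp1* to *Foxp2* was 215, 288 and 258. *Foxp1* has 12 basic transcripts, *Foxp2* 7 and *Foxp4* 4, and the table gives 1 value per gene, so which forms of the protein were made cannot be read from it. The 14 genes of the FoxP corepressor list, which hold subunits of the NuRD complex and CtBP proteins among others, all reached a mean of 1 FPKM, and 12 of them reached 10 FPKM, against 48.3% and 25.7% of all genes. *Ctbp1*, a corepressor that binds FoxP proteins, was the highest at 68.9 ± 4.63 FPKM (SD, n = 3), followed by the histone deacetylase gene *Hdac1* at 59.3 ± 4.86 FPKM (SD, n = 3). Among the lowest was *Gatad2b*, a NuRD subunit, at 9.75 ± 1.76 FPKM (SD, n = 3).

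Of the FoxO genes, *Foxo1*, *Foxo3* and *Foxo4* were detected in every library. *Foxo4* was at 13.2 (S38), 11.4 (S44) and 14.9 FPKM (S52). *Foxo1*, the member best known for holding ECs in quiescence, was at 12.3, 13.3 and 10.2 FPKM, and *Foxo3*, known for stress responses, at 6.71, 7.30 and 7.17 FPKM. *Foxo1* and *Foxo4* changed places between libraries, with a ratio of *Foxo4* to *Foxo1* of 1.07, 0.861 and 1.46. Both exceeded *Foxo3* in each library, *Foxo4* by 1.87 ± 0.266-fold and *Foxo1* by 1.69 ± 0.234-fold (SD, n = 3 for both). *Foxo3* had the smallest spread of the 10 genes, with a coefficient of variation of 4.36%. Summed over these 3 genes the level was 32.1 (S38), 32.0 (S44) and 32.2 FPKM (S52). Rescaling each library to the same sum gave 27.9, 20.0 and 22.7, so this evenness holds on the deposited scale and, at 31.6, 31.9 and 32.9, after scaling to the upper quartile. *Foxo6*, the remaining FoxO gene of the mouse, known mainly from brain, was at 0.0888, 0.486 and 0.0124 FPKM. For *Foxo1*, 6.76% of the 8615 windows of read length also occur in other genes, *Gm20402* on the other strand among them, and without strand information such reads cannot be told apart.

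The upstream regions of *Foxo1* and *Foxo3* are shown because these paralogues were steady in all libraries and differ in their letters. They are the 250 bases before the RefSeq start in GRCm38.p6 (chr3:52268087-52268336, plus strand, and chr10:42276696-42276945, minus strand). Capitals mark the CCAAT box (CCAAT, or ATTGG on the other strand) and the Sp core (GGGCGG, or CCGCCC).
Foxo1: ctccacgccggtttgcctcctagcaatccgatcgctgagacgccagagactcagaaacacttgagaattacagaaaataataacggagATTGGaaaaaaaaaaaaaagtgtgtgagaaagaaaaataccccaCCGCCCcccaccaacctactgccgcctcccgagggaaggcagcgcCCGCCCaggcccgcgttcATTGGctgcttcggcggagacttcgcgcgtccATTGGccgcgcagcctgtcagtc
Foxo3: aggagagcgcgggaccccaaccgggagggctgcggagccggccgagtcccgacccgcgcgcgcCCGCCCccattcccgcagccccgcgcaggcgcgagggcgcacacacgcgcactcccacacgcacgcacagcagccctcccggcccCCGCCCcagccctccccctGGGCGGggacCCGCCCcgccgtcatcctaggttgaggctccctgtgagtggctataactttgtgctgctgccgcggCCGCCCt
*Foxo1* held 3 CCAAT boxes and 2 Sp cores, and *Foxo3* held 5 Sp cores and no CCAAT box. Of all windows 33.8% held a CCAAT box and 32.7% an Sp core. *Foxo1* had 20 CpG dinucleotides and *Foxo3* 31, against a median of 6 over all windows.

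FoxC genes were at the lower end, and their libraries were at odds. *Foxc1*, a regulator of arterial fate and of the eye and heart vessels, was at 1.08 (S38), 0.961 (S44) and 0.199 FPKM (S52), and was thus 5.44-fold higher in S38 than in S52. *Foxc2*, which is needed for lymphatic valves, was at 0.0410 FPKM in S38, was listed at 0 in S44 and was at 0.607 FPKM in S52. These values stand for about 4.0, 0 and 53.0 fragments, and the 0 allows up to 0.0301 FPKM (3 fragments, counting error only). *Foxc1* was the higher of the pair in S38 and S44 and *Foxc2* in S52, so the order of the FoxC genes was not stable. Without S52 the mean of *Foxc2* was 0.0205 FPKM instead of 0.216, below that of *Foxp2*, and the mean of *Foxc1* was 1.02 FPKM instead of 0.748. Their sum was 1.13, 0.961 and 0.806 FPKM. The lymphatic markers did not move as a block either: *Prox1*, the factor that defines lymphatic ECs, was at 0.132, 0.173 and 0.598 FPKM, highest in S52, whereas *Mmrn1* was at 19.4, 17.6 and 0.236 FPKM and *Ccl21a* at 9.41 and 10.3 FPKM and listed at 0 in S52. The 7 lymphatic markers summed to 594, 651 and 414 FPKM, most of it *Lyve1*, which lung ECs also express. The Podoplanin- gate was meant to leave out lymphatic ECs, and *Pdpn*, the podoplanin gene, was at 2.39, 1.84 and 3.09 FPKM. The part of lymphatic RNA in the FoxC values was not tested.

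Of the 16 genes in the partner and target list of the FoxC genes, 13 reached a mean of 1 FPKM (48.3% of all genes) and 12 reached 10 FPKM (25.7% of all genes), and the list median was 22.1 FPKM against 0.784 FPKM over all genes of the table. The ETS factors *Ets1* at 110 ± 14.6 FPKM, *Erg* at 62.4 ± 21.0 FPKM and *Fli1*, at 20.3, 21.5 and 23.5 FPKM, were among them, while *Etv2*, an embryonic partner of *Foxc2*, was listed at 0 in every library. The Notch ligand gene *Dll4*, a FoxC target in arteries, was at 86.6 ± 4.15 FPKM and the receptor gene *Notch1* at 41.5, 48.4 and 36.2 FPKM (SD, n = 3 for each ± value). *Hey2*, an arterial Notch effector, was at 2.45, 0.679 and 3.74 FPKM. *Itgb3*, an integrin gene that platelets also express, was at 65.5, 50.5 and 3.48 FPKM, in the order of the platelet markers.

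The whole forkhead family was measured by 44 genes of the table. In all, 16 of them (36.4%) were at a mean of 1 FPKM or above, against 48.3% of all genes, and 16 were listed at 0 in all 3 libraries, as were 7183 of the 24346 genes of the table. *Foxf1* alone took 66.3% of the summed FPKM of the family in S38, 69.9% in S44 and 60.1% in S52, and the 10 genes together took 83.0%, 85.0% and 80.3%. Of the 34 other family genes, 9 were at a mean of 1 FPKM or above. The broadly used *Foxk2* was the highest of these at 14.2 ± 2.70 FPKM (SD, n = 3), followed by *Foxj3* at 13.5 ± 2.45, *Foxn2* at 12.3 ± 2.46, *Foxk1* at 11.2 ± 2.09, *Foxj2* at 10.3 ± 0.585 and *Foxn3* at 8.23 ± 0.432 FPKM (SD, n = 3 for each). Among those listed at 0 were *Foxa3*, *Foxb2*, *Foxd1*, *Foxd3*, *Foxd4*, *Foxe1*, *Foxe3*, *Foxh1*, *Foxi1*, *Foxi2*, *Foxi3*, *Foxl2*, *Foxn1*, *Foxn4* and *Foxr2*, many of them known from other tissues or the embryo. *Foxm1*, the factor of dividing cells, was at 1.37, 0.832 and 1.07 FPKM.

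Of the 16 family genes with a mean of 1 FPKM or above, 2 (*Foxj1* and *Foxs1*) differed between libraries by over 2-fold on log2(FPKM + 1). Among all genes at that level 12.7% did, so this count does not set the family apart. *Foxj1*, the factor of ciliated epithelium, was at 4.55 (S38), 2.94 (S44) and 1.43 FPKM (S52). All 6 ciliated markers were detected as well, their library medians being 9.10, 4.05 and 1.78 FPKM, and *Ccdc153* was at 10.1, 6.21 and 1.93 FPKM. *Foxs1*, a gene of pericytes and smooth muscle, was at 1.09 (S38), 0.334 (S44) and 3.01 FPKM (S52), with the mural marker *Notch3* at 4.99, 1.80 and 7.23 FPKM. All 8 mural markers were lowest in S44, but 4 were highest in S52 and 4, such as *Acta2* at 90.3, 46.7 and 79.7 FPKM, in S38. The airway factors *Foxa1* and *Foxa2* were below 1 FPKM in every library, and *Foxp3*, which defines regulatory T cells, was at 0.0968 and 0.106 FPKM and listed at 0 in S52. The part of other cells in these values was not tested.

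**Figure D3:**
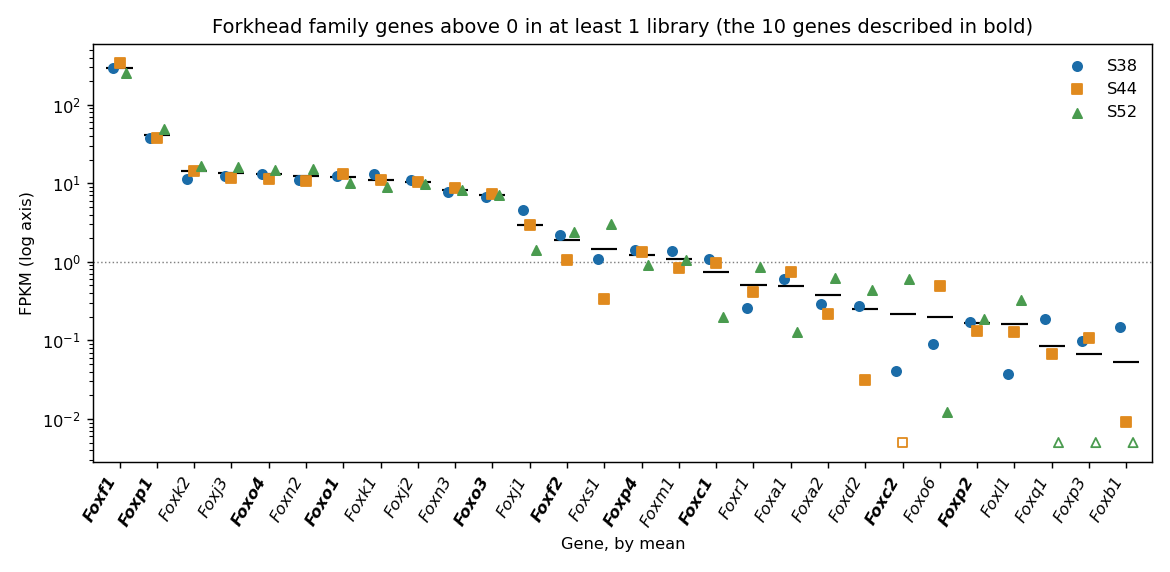
FPKM (log axis) of the forkhead family genes above 0 in at least 1 library, ordered by mean, with the 10 genes described in bold. Points are libraries, bars are means of 3 libraries, hollow points at the foot of the axis are values listed at 0, and the dotted line is 1 FPKM. Below *Foxf1* and *Foxp1*, 9 genes form a plateau between 7.06 and 14.2 FPKM.

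Of 36 genes that regulate FoxO factors, 35 reached a mean of 1 FPKM and 24 reached 10 FPKM, with a median of 19.3 FPKM. Among all genes, 48.3% reached 1 FPKM and 25.7% reached 10 FPKM. The receptor gene *Tek* was the highest, and the receptor genes *Insr*, at 10.8, 11.7 and 6.37 FPKM, and *Igf1r*, at 7.84, 6.04 and 3.75 FPKM, were lower in each library. The kinase gene *Akt1* was at 79.7, 89.9 and 101 FPKM, above *Akt2* at 26.1, 22.4 and 18.5 FPKM in each library. *Sgk1*, a kinase gene that responds to stress and phosphorylates FoxO proteins, was at 213, 182 and 385 FPKM, and was the single gene of the list with over 2-fold between libraries on log2(FPKM + 1). On the FPKM scale *Igf1r* and *Irs2* exceeded 2-fold as well. The 14-3-3 genes, whose proteins hold phosphorylated FoxO in the cytoplasm, included *Ywhaz* at 210 ± 4.29 FPKM and *Ywhab* at 126 ± 8.49 FPKM (SD, n = 3 for both), whereas *Ywhag* was at 19.4, 18.2 and 23.6 FPKM. The insulin receptor substrates were near the bottom, with *Irs1* at 2.32 ± 0.593 FPKM and *Irs2* at 1.57 ± 0.630 FPKM (SD, n = 3 for both). *Skp2*, a ubiquitin ligase gene for *Foxo1* protein, was the one regulator below 1 FPKM, at 0.656 ± 0.0940 FPKM (SD, n = 3). These are transcript levels, and phosphorylation or location of the proteins was not measured.

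Known FoxO target genes ranged from very high levels to 0. Of 41 genes, 35 reached a mean of 1 FPKM (48.3% of all genes) and 24 reached 10 FPKM (25.7% of all genes), with a median of 14.7 FPKM. *Cdkn1a*, the p21 inhibitor gene, was at 504, 686 and 642 FPKM, and *Txnip*, which restrains glucose uptake, at 385, 485 and 389 FPKM. The autophagy gene *Map1lc3b* was at 205 ± 18.7 FPKM and the flow-responsive factor gene *Klf2* at 199 ± 36.2 FPKM (SD, n = 3 for both). *S1pr1*, a receptor gene that keeps vessels tight and that is also in the *Foxf1* list, was at 479, 501 and 317 FPKM. Targets known from liver and muscle were at the bottom. The gluconeogenic *G6pc* was at 0.0378 FPKM in S38 and listed at 0 elsewhere, *Igfbp1* was listed at 0 in every library, and the muscle gene *Trim63* was at 0.0741 FPKM in S44 and listed at 0 elsewhere. Genes with over 2-fold between libraries included the stress gene *Gadd45b*, at 122, 132 and 286 FPKM, *Mxi1*, at 14.8, 11.1 and 6.53 FPKM, and the metabolic kinase gene *Pdk4*, at 3.70, 2.47 and 1.32 FPKM.

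**Figure D4:**
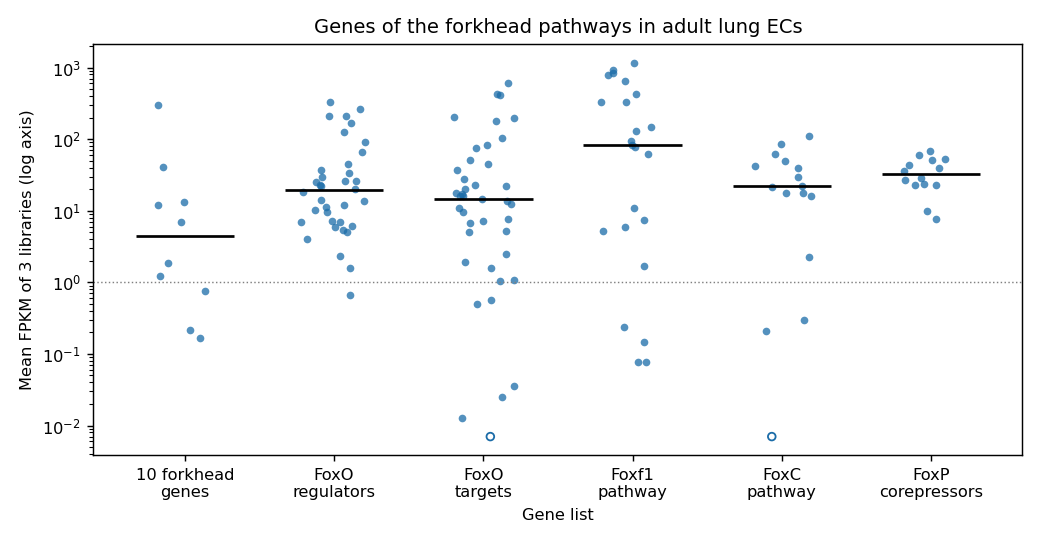
Mean FPKM over 3 libraries (log axis) of each gene in the list of 10 forkhead genes and in the lists of FoxO regulators, FoxO targets, *Foxf1* pathway, FoxC pathway and FoxP corepressors. Points are genes, black bars are list medians, the dotted line is 1 FPKM, and hollow points are genes listed at 0. The medians of the 5 pathway lists lie between 14.7 and 83.4 FPKM.

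Forkhead cores stood before a few of the FoxO targets, and these are shown with 30 bases around the match because the targets range from very high to absent. Promoter windows were in the table for 32 of the 41 genes (40 windows), of which 6 held GTAAACA on either strand, against 3.17% of all windows. The longer FoxO core GTAAACAA, which contains the former, was in 5 of the 40 windows (12.5%) against 1.07% of all. The list holds genes already known as FoxO targets, so a higher share of the core may be built into it. These shares are no test. The windows of this list also held more CpG dinucleotides, with a median of 20 against 6. Sequences are from RefSeq promoters of GRCm38.p6, read along the gene, with the core in capitals as GTAAACA or its reverse TGTTTAC.
Bcl2l11 (chr2:128125800-128125829, plus strand): aagacactaggGTAAACAcgccggggtggg
Txnip (chr3:96557825-96557854, plus strand): ttggaggcctgGTAAACAagggccaagtag
Trim63 (chr4:134314915-134314944, plus strand): cagtctgttctTGTTTACgacccccacggc
Bbc3 (chr7:16310083-16310112, plus strand): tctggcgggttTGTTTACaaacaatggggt
Btg1 (chr10:96616786-96616815, plus strand): gggggtttattTGTTTACaagcagattacg
Mxi1 (chr19:53329453-53329482, plus strand): cgcgcggagaaGTAAACAaaccgcgcgcgg
The genes behind these matches differed widely in level: *Txnip* at 420 ± 56.8 FPKM (SD, n = 3), *Btg1*, an antiproliferative gene, at 42.5, 47.2 and 62.6 FPKM, *Mxi1*, an antagonist of Myc, at 10.8 ± 4.15 FPKM, and the apoptosis genes *Bcl2l11* at 7.28, 6.81 and 8.76 FPKM and *Bbc3* at 5.18, 4.27 and 5.59 FPKM, beside *Trim63* near 0. A match in the window therefore did not go with 1 level of the gene.

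Matches in the FoxO regulators were in 2 of 43 windows (4.65%), before the kinase gene *Akt1* and the ubiquitin ligase gene *Mdm2*. They are shown for comparison with the targets, in the same build and with the same marking.
Akt1 (chr12:112675027-112675056, minus strand): atctaccctctTGTTTACactcctggtgaa
Mdm2 (chr10:117710893-117710922, minus strand): ggtttcgagcgGTAAACAcaaccgcgcggc
*Mdm2* was at 29.8, 27.8 and 43.3 FPKM, highest in S52 as *Akt1* was. The *Foxf1*, FoxC and FoxP corepressor lists held the core in 1 window each, of 17, 16 and 16 windows (5.88%, 6.25% and 6.25%). Shares above the 3.17% of all windows were thus not confined to the FoxO targets, and with so few matches they are no test.

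The list built around *Foxf1* ranged from endothelial surface genes such as *Pecam1* down to hedgehog pathway genes such as *Shh*. Of 23 genes, 19 reached a mean of 1 FPKM, against 48.3% of all genes, and 10 reached 100 FPKM, as did 887 of all 24346 genes. The list median was 83.4 FPKM. The list holds *Pecam1*, which encodes the CD31 antigen of the sort, and *Cdh5*, which encodes the VE-cadherin that the injected antibody binds. *Acvrl1*, the BMP9 receptor gene, was at 776, 828 and 911 FPKM and *Tmem100*, which lies downstream of that receptor, at 849, 851 and 684 FPKM. *Kit*, a stem cell factor receptor gene of lung capillaries, was at 91.1, 110 and 81.0 FPKM and the Wnt and norrin receptor gene *Fzd4* at 80.4, 105 and 65.2 FPKM. Like *Foxf1*, *Kit*, *Fzd4*, *S1pr1*, *Pdgfb*, *Tmem100* and *Fendrr* were lowest in S52 and highest in S44. Of the 19 genes, 10 were highest in S44, 6 in S52 and 3 in S38, and 8 were lowest in S52. Among the 11770 genes of the table with a mean of 1 FPKM or above, 3406 were highest in S44 and 5447 lowest in S52. With libraries rescaled to equal sums, *Foxf1* and *Fendrr* were highest in S38 instead. The hedgehog ligand gene *Shh* was at 0.220 and 0.0102 FPKM and listed at 0 in S52, and its effectors *Gli2*, at 0.00402, 0.0312 and 0.193 FPKM, and *Gli3*, at 0.0414, 0.259 and 0.139 FPKM, were below 1 FPKM, whereas the signal transducer gene *Smo* was at 5.10, 4.69 and 5.65 FPKM. *Irf1*, an interferon response factor gene, was at 404, 636 and 877 FPKM, the single one of the 19 genes with a mean of 1 FPKM to exceed 2-fold between libraries on log2(FPKM + 1). On the FPKM scale *Bmp4*, at 14.8, 7.03 and 10.7 FPKM, and *Wnt2*, at 1.16, 2.49 and 1.46 FPKM, also exceeded 2-fold, as did genes below 1 FPKM.

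Spread between libraries on log2(FPKM + 1) was within 2-fold for the forkhead genes, as for most detected genes. None of the 10 genes had its highest library over 2-fold above its lowest. Of the 11770 genes with a mean of 1 FPKM or above, 7 of the 10 among them, 12.7% did. Finding none among 7 genes is near that share and does not set them apart. The pseudocount of 1 hides changes of low genes, and with 0.1 in its place 3 of the 10 passed 2-fold, namely *Foxc1*, *Foxc2* and *Foxf2*. The share of all genes that pass with 0.1 was not computed, so this count does not set the 10 genes apart. S52 was the lowest library for 3 of the 7 genes with a mean of 1 FPKM or above (*Foxf1*, *Foxo1* and *Foxp4*), near the 46.3% of all such genes, and the highest for 3 (*Foxp1*, *Foxo4* and *Foxf2*), against 33.9%. With libraries rescaled to equal sums, *Foxo4* and *Foxf2* were highest in S38 instead. The log2 differences of these 7 genes between libraries were at most 0.71. The platelet gene *Pf4*, at 329, 284 and 3.76 FPKM, and the alveolar type 2 gene *Sftpc*, at 3333, 2862 and 658 FPKM, differed more. Both come from the marker lists in which S52 stood apart and are not typical genes.

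**Figure D5:**
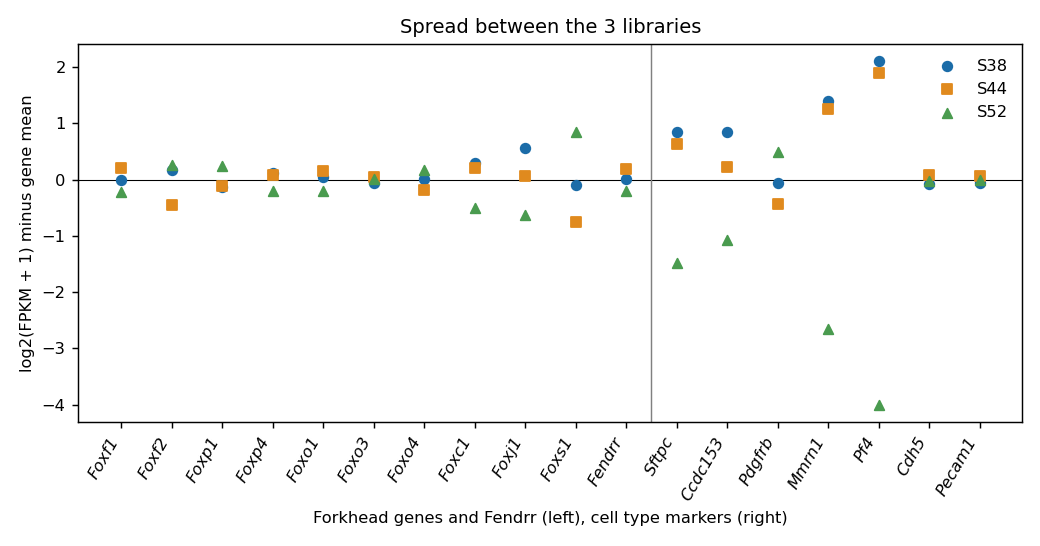
Difference of log2(FPKM + 1) in each library from the mean of the gene over the 3 libraries, for forkhead genes and *Fendrr* (left of the grey line) and for markers of alveolar, ciliated, mural, lymphatic, platelet and endothelial cells (right). Points are libraries. *Foxf1*, *Foxp1* and the FoxO genes stay near the zero line, as *Cdh5* and *Pecam1* do, while *Pf4*, *Mmrn1* and *Sftpc* are far lower in S52.

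Among 120 listed genes averaging 10 FPKM or more (121 for *Foxc1*), those with the pattern closest to *Foxf1* over the 3 libraries were *Notch1*, *Fendrr* and *Kit*, at Euclidean distances of 0.0133, 0.0323 and 0.0417 between centred log2(FPKM + 1) values. Closest to *Foxo1* were *Pdgfb*, *Fendrr* and *Vegfc*, at 0.0330, 0.0455 and 0.0600. Closest to *Foxp1* were *Sirt1*, *Ywhae* and *Spry2*, at 0.0208, 0.0410 and 0.0458, and closest to *Foxc1* were *Bnip3*, *Cat* and *Kdr*, at 0.0192, 0.0857 and 0.0912. On the FPKM scale *Foxc1* differed 5.44-fold between libraries, against 1.82-fold for *Bnip3*, 1.92-fold for *Cat* and 1.60-fold for *Kdr*. The closeness to *Foxc1* thus rests on the pseudocount of 1. With 3 libraries that share all their processing such likeness is a description only.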

How the data were processed

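Bulk poly-A RNA of 3 libraries of sorted adult lung ECs was sequenced by the authors as unstranded 51 bp paired reads. The deposited values are FPKM for each gene symbol, on the mm10 genome. The submitters' processing notes name bcl2fastq 2.17, FastQC 0.11.5, Trimmomatic 0.36, TopHat2 2.1.0 and Cufflinks 2.2.1, with no roles given. The paper describes STAR and HTSeq for its counts, which were not used here, and the gene annotation behind the FPKM values is not given in the sources used here. Values were used as deposited, with no count model. FPKM depends on the gene length assumed, and very short noncoding genes can take a large share of a library's sum.

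Levels are means and SDs of 3 libraries. Library differences and distances used log2(FPKM + 1), a scale that understates differences of low genes. Pairs of genes were compared with a two-sided exact paired permutation test and Benjamini-Hochberg adjustment. Named genes were the 10 forkhead genes and, from each list, the 6 highest, the 3 lowest and those with over 2-fold between libraries, and further list genes were named for their role after their values were seen. Not every gene that the rule covers is printed. The 10 genes and the lists were chosen with earlier results of these data known.

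With a procedure devised once the values were known, depth was estimated as the smallest number of fragments that makes low values whole numbers. It searched 7077 genes with a single basic GENCODE transcript. At the estimated depths 324 (S38), 412 (S44) and 207 (S52) values were low enough to enter the fit. Of these, 74.9% to 78.4% lay within 0.15 of a whole number. On counts simulated for the 7077 genes from these same depths and lengths, the 3 depths were recovered exactly on the grid searched. That checks the search only, not the lengths assumed. Limits cover counting error only. Positions, lengths and shared windows are from GENCODE M21 (GRCm38), in which 95.7% of symbols were found. Promoter windows are RefSeq sequences of GRCm38.p6, and 6 of the 10 genes matched. Python 3.11.15, pandas 2.3.3, numpy 2.4.6, scipy 1.17.1 and matplotlib 3.10.9 were used.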

Additional observations from a re-analysis of the deposited data

How the results depend on the processing

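The alternatives were leaving out each library, rescaling libraries to equal sums or to their upper quartile, other detection thresholds and a smaller pseudocount. Of 123 alternative values, 112 stayed within 1 SD or, for counts, within 1.5 times the reported value. Leaving out 1 of 3 libraries always moves a mean by less than 1 SD. For the levels and the *Foxf1* share, those alternatives could therefore not fail, and they are no evidence of stability. The SD of *Foxc2* is larger than its mean, and without S52 its mean was 0.0205 FPKM instead of 0.216. Leaving out a library gave a mean of *Foxf1* between 274 and 318 FPKM. Rescaling to equal sums lowered the median of all detected genes by a log2 shift of -0.45 and the mean of *Foxf1* to 216, and S38 then replaced S44 as its highest library, while S52 remained the lowest. The rank of *Foxf1* was 355 in that setting. A detection threshold of 10 FPKM left 4 of the 10 genes and 9 of the forkhead family, and a threshold of 0.1 FPKM gave 25 of the family. With a pseudocount of 0.1 FPKM, 3 of the 10 genes differed over 2-fold between libraries, and the share of all genes in that setting was not computed. Of the 45 alternative values for the levels of the other 9 genes, 6 moved by more than 1 SD, all on rescaling to the same sum. No paired analysis was possible because the samples form 1 group, so no groups share replicate numbers. The paired test of the text compares genes within libraries, not groups. Depth limits the lowest levels: *Foxc2*, listed at 0 in S44, could be up to 0.0301 FPKM there.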
